A study of Mus musculus with 4 samples.

Results

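The genes described here are 10 checkpoint and costimulation genes, taken by symbol from the 32285 genes of the matrices. 4 encode ligands (Cd274 or PD-L1, Pdcd1lg2 or PD-L2, Cd80 and Cd86) and 6 encode receptors (Pdcd1 or PD-1, Ctla4, Cd28, Lag3, Havcr2 or TIM-3, and Tigit). They were followed through the cells of ascites, the fluid that gathers in the peritoneal cavity with abdominal tumors, in 4 single-cell RNA-seq libraries from female FVB mice. All mice carried intraperitoneal Br-Luc tumors, a mouse ovarian cancer line that lacks p53 and Brca1 and carries myc and myristoylated Akt, and ascites was taken 6 weeks after injection of the tumor cells. Mice of the group labelled siCont received a control siRNA with locked nucleic acid (LNA) bases, and mice of the group labelled siFXR1-LNA received an LNA-modified siRNA against Fxr1, both carried by jetPEI. Each group has 2 libraries, and the methods state that ascites of several mice was pooled for each, so that a library is a pool and not an animal. The injected line is a single model, and red blood cells were lysed before loading.

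T cells need a signal through CD28 beside that of the antigen receptor, and CD80 and CD86 on antigen-presenting cells give it. CTLA-4 binds the same ligands more tightly and holds T cells back. PD-1 is an inhibitory receptor engaged by PD-L1, which many cells make after interferon-gamma, and by PD-L2, which is kept more to dendritic cells (DCs), macrophages and some B cells. LAG-3, TIM-3 and TIGIT are further inhibitory receptors of activated and exhausted T cells and NK cells, and TIM-3 and LAG-3 are also known on DC subsets.

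On the GRCm38 build, Cd274 (chr19:29367455-29388095, plus strand) and Pdcd1lg2 (chr19:29410919-29471161, plus strand) are neighbours, 22.8 kb apart. Cd28 (chr1:60716800-60773359, plus strand) and Ctla4 (chr1:60887000-60915832, plus strand) lie 114 kb apart on a chromosome that also holds Pdcd1 (chr1:94038305-94052553, minus strand). Cd86 (chr16:36603869-36666081, minus strand), Cd80 (chr16:38455561-38496335, plus strand) and Tigit (chr16:43648867-43664146, minus strand) share another. Lag3 is at chr6:124904361-124911705 (minus strand) and Havcr2 at chr11:46454935-46481255 (plus strand).

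In siCont, 36551 and 25324 barcodes carried 101500063 and 88346685 unique molecular identifiers (UMIs, each standing for 1 captured transcript). In siFXR1-LNA there were 54665 and 17309 barcodes, and their UMIs summed to 113606837 and 78179267. Pairs of values are always given in the order replicate 1 and replicate 2, and 4 values in the order siCont 1, siCont 2, siFXR1-LNA 1 and siFXR1-LNA 2. Fxr1, the target of the siRNA, had 55.8 and 33.9 CPM (its UMIs as a part of all UMIs of the cells, on the usual CPM scale) in the kept cells of siCont and 104 and 71.8 CPM in siFXR1-LNA. Over all kept cells, the target was thus not lower in the libraries labelled siFXR1-LNA, and a group is meant by its label throughout. Without hemoglobin in the total, Fxr1 had 80.4 and 59.4 CPM under the siCont label and 116 and 80.0 CPM under the siFXR1-LNA label, values that overlapped. The mixture of cell types differed between the groups, and Fxr1 within a type is not given here. The paper reports Fxr1 as lower in the epithelial cells of its siFXR1-LNA group. Hemoglobin genes made up 29.6% and 41.1% of all UMIs in siCont and 10.0% and 9.12% in siFXR1-LNA, so that RNA of red blood cells moved with the groups. Pairs of libraries shared 598 to 2882 barcodes, 2.36% to 7.88% of the barcodes of a library, and which cells these belong to was not tested.

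Of 132644 kept cells, 85632 were in clusters with raised markers of 15 types, 4345 were in clusters with markers of several types, and 42667 were unnamed. The library siFXR1-LNA 1 stood apart in this, with 64.1% of its kept cells unnamed (34851 cells) against 12.5%, 2.93% and 15.1% in siCont 1, siCont 2 and siFXR1-LNA 2. Unnamed cells entered no test. Rules on depth and on leading genes, given below, could leave a cluster with raised markers unnamed. With cells named from their own marker UMIs, siFXR1-LNA 1 had 11234 macrophages against 3921 in the main naming. Epithelial or mesothelial cells of that library numbered 5708 against 1360. For edgeR calls of the 10 genes, values without this library are given where a call depended on it. For the wider lists below, the number of calls kept without it is given, with values for few genes. The types were macrophage-like, granulocyte-like, cDC1-like, cDC2-like, mature DC-like (Fscn1, Ccl22, Ccr7), pDC-like, T cell-like, gamma-delta T cell-like (Trdc, Trdv4, Cd163l1), NK cell-like, B cell-like, epithelial or mesothelial-like, fibroblast-like, erythrocyte-like and platelet-like, and the ending is left out below. The 299 cells of cluster c11.0 had all 7 mast cell markers raised, but none of these was among its 10 leading genes, which held Elane, Mpo and Ctsg, genes of neutrophil granules, beside Mcpt1 and Cd200r3. This cluster is therefore called by its number, though it is counted among the 15 and among the types compared. Neither the 10 genes nor the wider lists below were among the genes used for clustering. In 13 types every library had at least 10 cells, and these were compared. NK cells (76, 55, 5 and 10) and platelets (4, 168, 6 and 10) had too few in a library and are only described. Macrophages numbered 4384 and 2132 in siCont and 3921 and 3650 in siFXR1-LNA, granulocytes 445 and 903 against 5052 and 4651, T cells 1281 and 1494 against 754 and 706, and gamma-delta T cells 433 and 155 against 121 and 448. For DCs the cells captured were 777 and 428 against 185 and 235 cDC2s, 398 and 182 against 75 and 68 cDC1s, and 336 and 147 against 67 and 87 mature DCs.

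Each gene was carried mainly by a few types, and the orders given here are among the 13 compared types. Mean levels over the 4 libraries, given as CPM of the UMIs of a type with the SD (n = 4), put mature DCs first for all 4 ligands. Cd274 averaged 321 ± 75.9 CPM there, above every other type in every library, with macrophages at 90.3 ± 69.8, c11.0 at 84.1 ± 43.5 and cDC2s at 80.4 ± 54.5 CPM next and not separable from each other. The value of c11.0 rests on only 9, 14, 2 and 11 UMIs. Pdcd1lg2 averaged 98.5 ± 29.7 CPM in mature DCs, again with no overlap with B cells at 29.7 ± 15.9 CPM. Cd80 (101.9 ± 57.4 CPM in mature DCs, 42 ± 27.4 in granulocytes) and Cd86 (145 ± 55.2 in mature DCs, 126 ± 9.49 in cDC1s) had no such gap, and their neighbouring types overlapped.

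**Figure D1:**
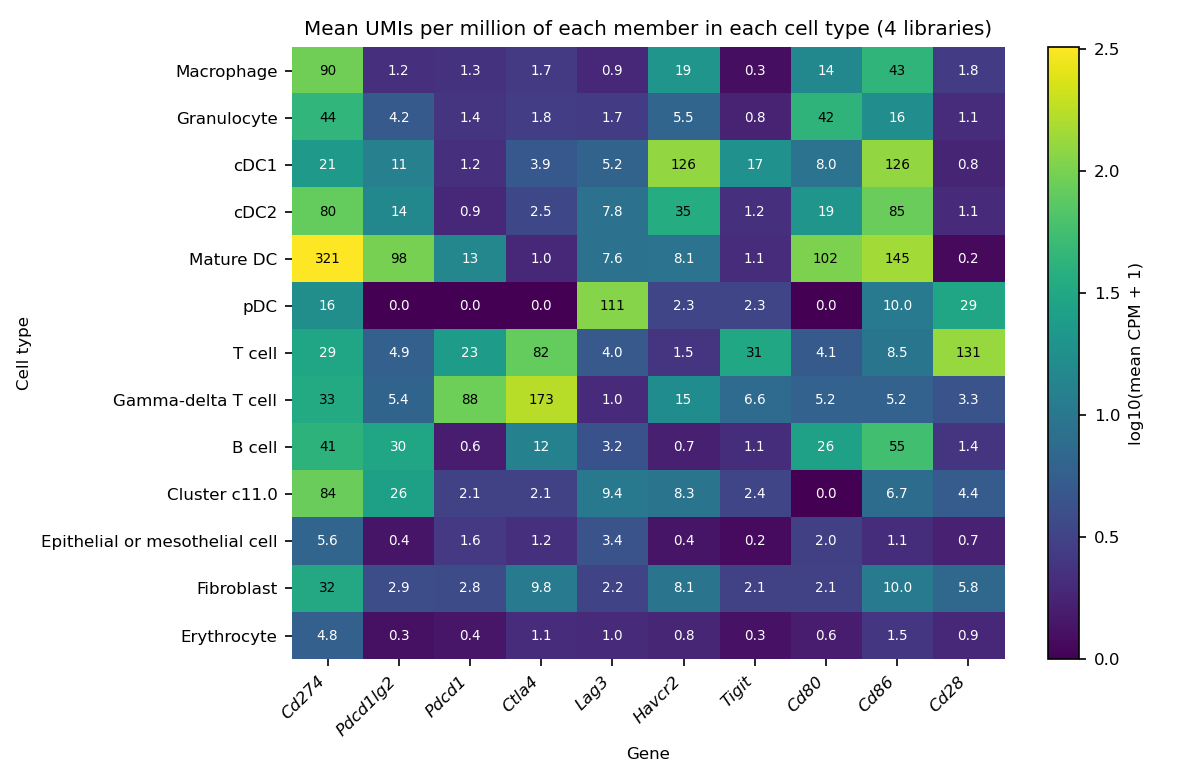
Mean CPM over the 4 libraries of each of the 10 genes (columns) in the 13 compared cell types (rows), with the color on a log10(mean CPM + 1) scale and the mean CPM printed in each field. The highest field of a column is mature DCs for Cd274, Pdcd1lg2, Cd80 and Cd86, gamma-delta T cells for Pdcd1 and Ctla4 (for Ctla4 only through the siFXR1-LNA libraries), T cells for Tigit and Cd28, cDC1s for Havcr2 and pDCs for Lag3.

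The receptors were divided among lymphocytes and DCs. Pdcd1 was highest in gamma-delta T cells (88.1 ± 42 CPM, SD, n = 4) and next in T cells (23.5 ± 3.88 CPM), and both stood apart from the types after them among the 13. NK cells had 20.9, 15.1, 0 and 0 CPM of Pdcd1, from 5, 4, 0 and 0 UMIs, so that the first of these was within the range of T cells. The mean of Ctla4 over all libraries was 173 ± 204 CPM in gamma-delta T cells and 81.9 ± 31.1 CPM in T cells, but the order depended on the group: in siCont, gamma-delta T cells (3.44 and 14.3 CPM) were below T cells (40.4 and 85.6 CPM), and in siFXR1-LNA (427 and 249 CPM) above them (85.7 and 116 CPM). Cd28 was highest in T cells (131 ± 47.7 CPM) with no overlap with pDCs (28.5 ± 12.1 CPM, from 2, 3, 1 and 4 UMIs), the next of the 13. NK cells, with 50.1, 49.1, 74.9 and 48.0 CPM of Cd28 from 12, 13, 2 and 2 UMIs, lay above pDCs and overlapped with T cells. Among the 13 compared types Tigit was highest in T cells (31.2 ± 8.4 CPM), which overlapped with cDC1s (17.4 ± 7.5 CPM). The few NK cells, not among the 13, were higher in every library, as given below. Havcr2 and Lag3 were highest outside T cells: Havcr2 in cDC1s (126 ± 25.7 CPM, no overlap with cDC2s at 34.5 ± 19.3 CPM), and Lag3 in pDCs (111 ± 49.6 CPM, where c11.0, next of the 13, had 9.36 ± 13.4 CPM). NK cells had 8.34, 18.9, 74.9 and 0 CPM of Lag3, from 2, 5, 2 and 0 UMIs. The Lag3 value in pDCs rests on 12, 6, 4 and 20 UMIs, and that in c11.0 on 0, 3, 0 and 1 UMIs. The types were defined on these same cells, so these orders are descriptions with no test.

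To ask which of the genes differed between siFXR1-LNA and siCont within a type, UMIs were summed per library and type and tested with edgeR's quasi-likelihood test over all genes (Benjamini-Hochberg adjusted p under 0.05). Of 130 pairs of gene and type, 63 passed the filter on low counts. Among those 63, 6 were called, 3 higher and 3 lower in siFXR1-LNA, beside 4.85% of all gene and type pairs tested. At an unadjusted p under 0.05 there were 25 of the 63. DESeq2 called 9, the same 6 with Pdcd1lg2 in cDC1s, Cd86 in cDC2s and Cd274 in erythrocytes. Counts of members by these further criteria, here and below, have no share over all genes beside them and are descriptions. The called pairs were Cd274, Havcr2 and Pdcd1 in macrophages, Cd274 and Havcr2 in cDC2s, and Ctla4 in gamma-delta T cells. In macrophages 18.9% of all tested genes were called, in cDC2s 3.6% and in gamma-delta T cells 1.05%. Members called were 3 of the 9 that passed the filter in macrophages, 2 of 6 in cDC2s and 1 of 4 in gamma-delta T cells. EdgeR called none of the 6 that passed in B cells, 7 in T cells, 6 in cDC1s or 5 in mature DCs, where 0.175%, 0.694%, 1.03% and 2.41% of all tested genes were called. Nor did it call any of 7 in granulocytes, 8 in erythrocytes, 3 in epithelial or mesothelial cells, 1 in c11.0 and 1 in fibroblasts, beside 2.65%, 6.41%, 8.97%, 1.9% and 0.239% of all genes. No member passed in pDCs, where 1.92% of the tested genes were called. A pair not called is not shown to be unchanged, since the test missed most simulated 2-fold changes, as given below. In the 3 types with called members, the 5 erythrocyte markers were all detected in every library, led by Hbb-bs, and their summed level was higher in both siCont libraries. It was 82418 and 58766 CPM in siCont macrophages and 29634 and 12482 CPM in siFXR1-LNA macrophages. In cDC2s it was 97958 and 76383 against 29473 and 16606 CPM (siCont against siFXR1-LNA), and in gamma-delta T cells 220969 and 230286 against 75244 and 40869 CPM. The part of red blood cell RNA in the changes of the members was not tested. Libraries of pooled ascites are the only replicates, so these p-values rest on 2 pools per group. The test draws the spread of a gene toward that of all genes, and spread between animals is not measured.

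**Figure D2:**
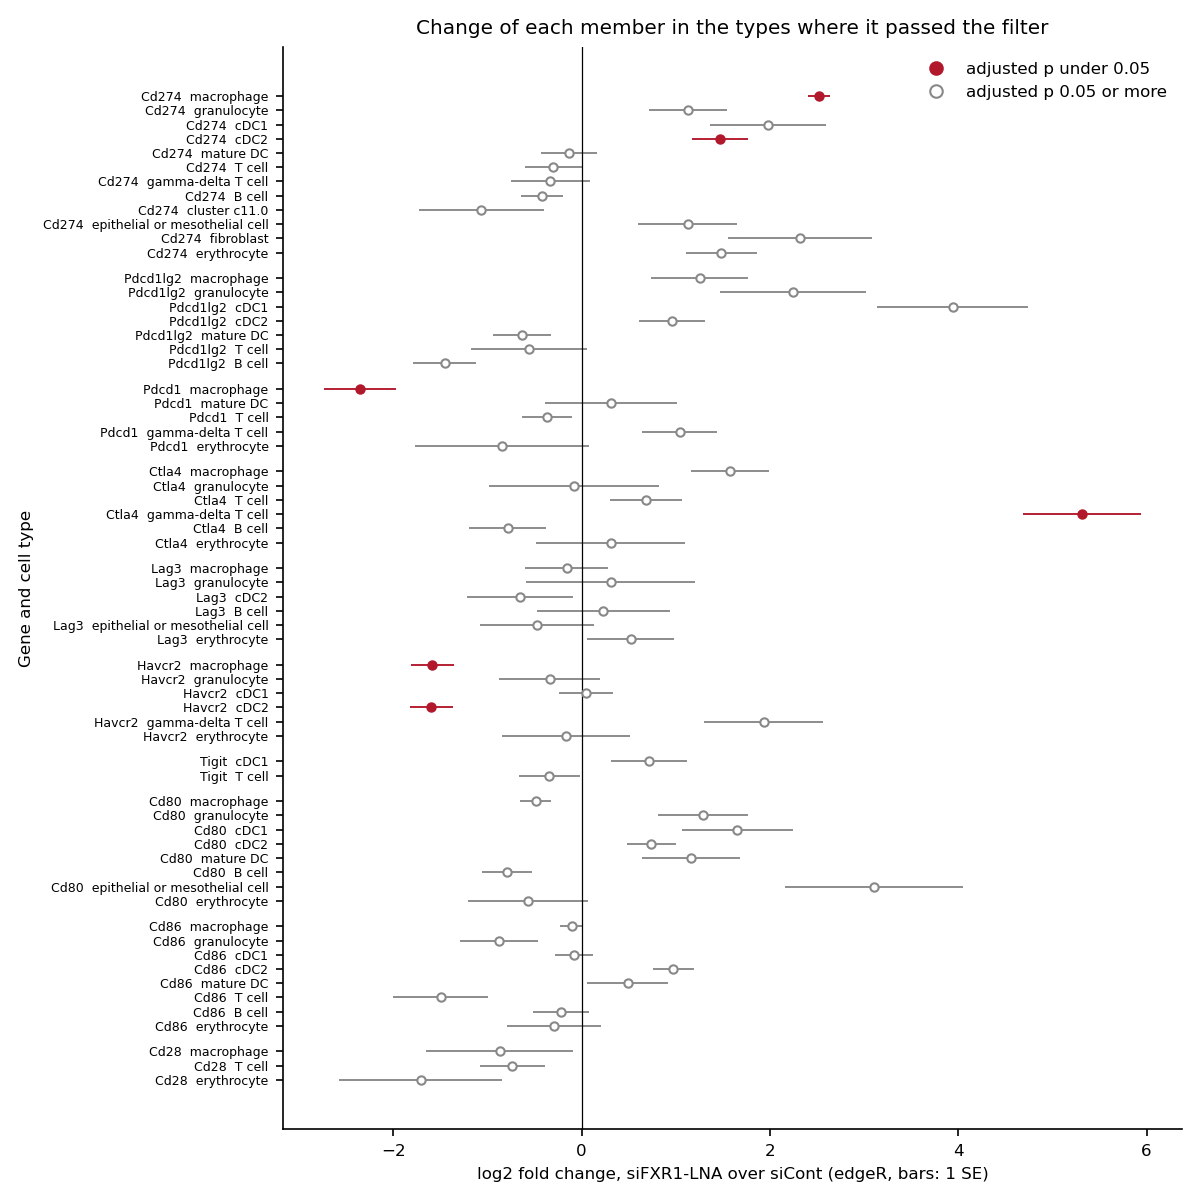
Change of each gene in each cell type where it passed the filter on low counts (rows, 63 pairs), as log2 of siFXR1-LNA over siCont with bars of 1 SE. The 6 filled red points have an adjusted p under 0.05: to the right of 0 Cd274 in macrophages (2.52) and cDC2s (1.47) and Ctla4 in gamma-delta T cells (5.32), and to the left Pdcd1 in macrophages (-2.35) and Havcr2 in macrophages (-1.58) and cDC2s (-1.59).

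Cd274, the gene of PD-L1, was 29.8 and 30.0 CPM in siCont macrophages and 154 and 147 CPM in siFXR1-LNA macrophages, from 689, 519, 3486 and 4823 UMIs. Both siFXR1-LNA libraries lay far above both siCont libraries, with a ratio of the means of 5.04. The change was 2.52 ± 0.12 on the log2 scale (SE, n = 2 per group, edgeR adjusted p = 0.00365). By flow cytometry, the paper reports PD-L1 protein on tumor-associated macrophages as lower in its siFXR1-LNA group, the opposite direction. Those values are protein on gated cells and these are RNA, and the gap between them was not tested. After each cell was thinned to 1000 UMIs, with shallower cells left out (71, 40, 20 and 11 macrophages), 3.15% and 2.29% of siCont macrophages and 12.7% and 11.9% of siFXR1-LNA macrophages had a Cd274 UMI, against 12.7%, 17.2%, 44.4% and 51.4% without thinning. In erythrocytes, which should lack the gene, the thinned shares were 0.209%, 0.171%, 0.867% and 0.778%, so those shares were higher in siFXR1-LNA as well, at a much lower level. Erythrocytes of the groups sat largely in different clusters, with 52.7% of siCont in c1.0 and 67.4% of siFXR1-LNA in c0.1. This background was thus measured in unlike cells. Median depth of the cells kept for thinning was 4982, 8036.5, 5221 and 8625 UMIs in these macrophages and 1755, 2363, 2157 and 2939 UMIs in the erythrocytes. The exact permutation test over 4 libraries cannot give a p below 0.333, which is the value here and for every other share in which the groups separate.

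Macrophages of the groups sat largely in different clusters. Of the siCont macrophages, 39.9% were in cluster c3.0 (Fcna, Cbr2, Retnla) and 26.7% in cluster c3.1 (Retnla, Nr1h3, Fcgr1). Of the siFXR1-LNA macrophages, 18.5% were in cluster c3.3 (Apoe, Alox15), 17.8% in c6.0 (Ptges, Mt2, Nos2) and 16.3% in c6.1 (Vcan, Acod1, Nos2). Cd274 was high in clusters of the c6 group that held almost only siFXR1-LNA cells, with 159 and 159 CPM in c6.0, 144 and 157 CPM in c6.1, 199 and 244 CPM in c6.2 and 326 and 410 CPM in c6.3. In c3.1, which held siCont cells almost alone, it had 55.0 and 48.9 CPM. In the clusters with cells of all 4 libraries the gap was small: 14.7 and 15.9 against 28.3 and 26.3 CPM in c3.2, 51.1 and 52.3 against 70.8 and 49.3 CPM in c3.3 (26, 35, 514 and 886 cells, so largely of siFXR1-LNA and yet near the level of c3.1), and 63.4 and 75.4 against 108 and 59.3 CPM in c6.4. With only such clusters, an alternative chosen after seeing the data, the Cd274 change in macrophages was 0.80 (adjusted p = 0.266), and edgeR called no gene at all in macrophages, with 1314 of 11198 at an unadjusted p under 0.05. The 7 granulocyte markers summed to 123 and 431 CPM in siCont macrophages and 1307 and 1542 CPM in siFXR1-LNA macrophages, with all 7 detected in each library. The most abundant were Csf3r and S100a9 in siCont and S100a8 in siFXR1-LNA. The part of granulocyte RNA in the Cd274 change was not tested. Granulocytes themselves had 30.4, 18.2, 50.6 and 74.9 CPM of Cd274, below the macrophages of the same siFXR1-LNA libraries.

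Cd274 also differed in cDC2s, the DCs known for presenting antigen to CD4 T cells. Its level was 42.8 and 38.8 CPM in siCont and 156 and 83.8 CPM in siFXR1-LNA, from 159, 137, 128 and 129 UMIs. The groups did not overlap, but siFXR1-LNA 1 was well above siFXR1-LNA 2. The change was 1.47 ± 0.30 (log2, SE, n = 2 per group, edgeR adjusted p = 0.0462), and without siFXR1-LNA replicate 1 it was 0.97 (adjusted p = 0.135). All siFXR1-LNA cDC2s and 35.9% of the siCont cDC2s were in cluster c3.4 (Cd209a, Mgl2, Clec10a), and within it Cd274 had 23.9 and 14.7 CPM against 156 and 83.8 CPM. The other siCont cDC2s, in c3.6, had 52.5 and 48.6 CPM, and with c3.4 alone the change was 2.54 (adjusted p = 0.0333, chosen after seeing the data). Thinned shares of cDC2s with a Cd274 UMI were 4.01% and 4.21% in siCont and 11.4% and 8.12% in siFXR1-LNA (unthinned 15.4%, 23.6%, 31.9% and 27.2%). The 9 mature DC markers summed to 99.9 and 58.7 CPM in siCont cDC2s and 232 and 196 CPM in siFXR1-LNA cDC2s, with Apol7c at 0 in all 4, Relb most abundant in siCont and Ccr7 in siFXR1-LNA. The 7 cDC2 markers summed to 2572 and 2790 CPM against 859 and 1534 CPM. The part of either shift in the Cd274 difference was not tested.

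In mature DCs, the type with the highest level, Cd274 was 231 and 416 CPM in siCont and 327 and 310 CPM in siFXR1-LNA, and the groups overlapped (log2 change -0.13 ± 0.30, adjusted p = 0.876). Of the mature DCs, 65.6% of siCont were in cluster c10.0 and 83.1% of siFXR1-LNA in c10.1, which held 13.5% of siCont and in which Cd274 had 171 and 390 against 323 and 294 CPM. Each type was compared with macrophages in its change, so all these comparisons share the macrophage sums. Of 52 pairs tested in both types, 19 differed, beside 3.9% of all pairs of gene and type that passed the filter in the type and in macrophages. For mature DCs the difference in Cd274 was past the threshold (-2.68 ± 0.28, adjusted p = 1.96e-18, edgeR interaction test). In mature DCs, gamma-delta T cells and c11.0, this test took the spread almost wholly from all genes pooled. Such small p-values therefore do not measure the spread of Cd274 itself between 2 pools per group. B cells had 43.9 and 47.5 against 32.3 and 39.8 CPM, T cells 28.8 and 34.4 against 19.3 and 31.6 CPM, and gamma-delta T cells 31.0 and 40.5 against 30.0 and 32.2 CPM, none of them called. In these types too the change differed from that of macrophages, by -2.94, -2.83 and -2.84. The change in cDC2s was likewise smaller than in macrophages (difference -1.11 ± 0.22, adjusted p = 0.000786), although without siFXR1-LNA replicate 2 the difference was -0.70 (adjusted p = 0.0713). Other types had higher CPM in both siFXR1-LNA libraries without passing the threshold: granulocytes (30.4 and 18.2 against 50.6 and 74.9 CPM, adjusted p = 0.181), epithelial or mesothelial cells (4.75 and 1.15 against 7.64 and 8.81 CPM, adjusted p = 0.220), fibroblasts (9.13 and 17.7 against 81.1 and 18.0 CPM, adjusted p = 0.274), cDC1s (6.72 and 9.76 against 54.8 and 13.9 CPM, adjusted p = 0.220) and erythrocytes (2.01 and 1.35 against 8.64 and 7.30 CPM, adjusted p = 0.0675).

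**Figure D3:**
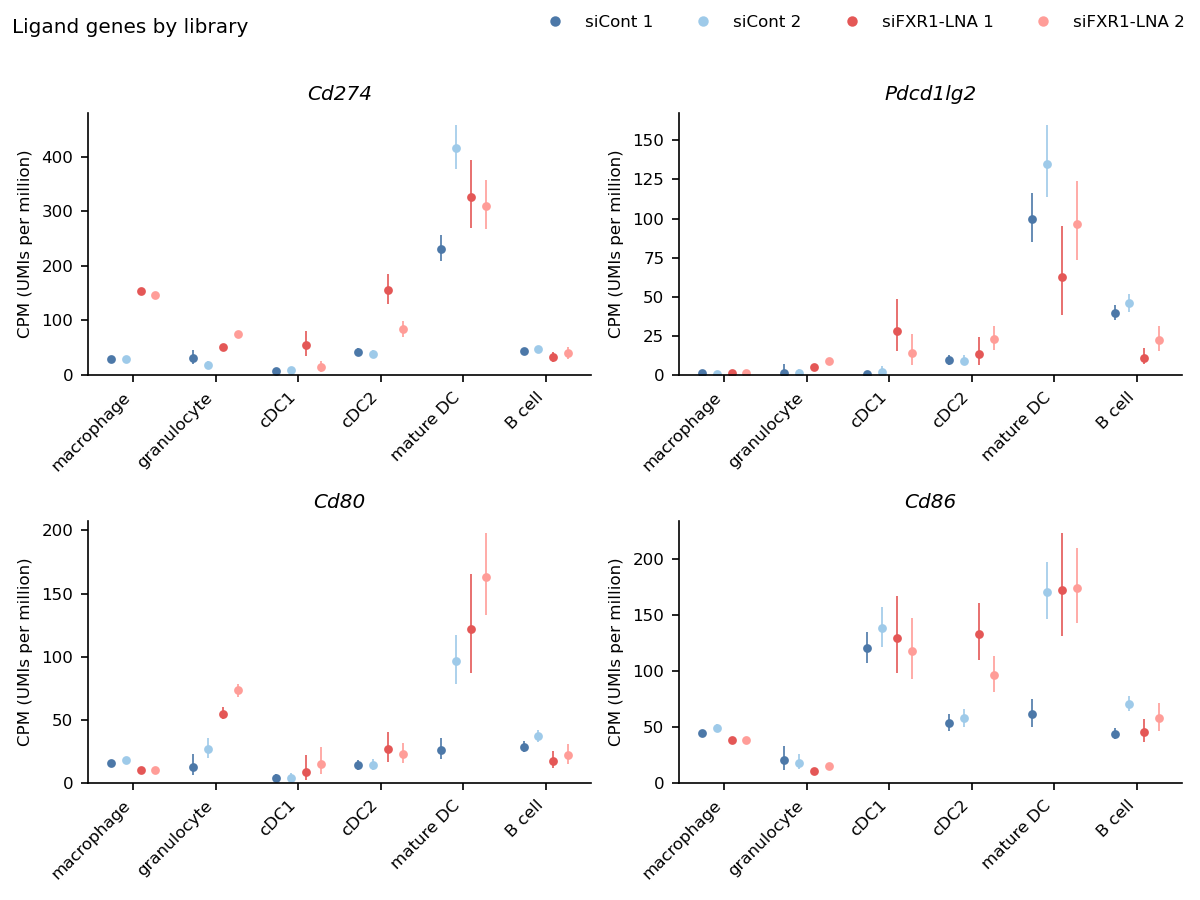
CPM of the 4 ligand genes in 6 cell types, 1 point per library with its exact 95% Poisson interval (counting error only). In macrophages the siFXR1-LNA points of Cd274 (154 and 147 CPM) lie above the siCont points (29.8 and 30.0 CPM), while in mature DCs the points of the groups overlap.

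Pdcd1lg2, the other PD-1 ligand, was called by edgeR in none of the 7 types where it passed the filter, with an unadjusted p under 0.05 in 4 and a call by DESeq2 in 1. In B cells it had 39.8 and 45.8 CPM in siCont and 11.1 and 22.3 CPM in siFXR1-LNA (263, 265, 20 and 33 UMIs). The siCont libraries were higher and the groups did not overlap, with a log2 change of -1.45 ± 0.33 and an adjusted p of 0.156. B cells of siCont were mainly in clusters c4.0 (36.4%) and c4.1 (34.0%), and 82.6% of those of siFXR1-LNA were in c4.3. In c4.4, which held cells of all 4 libraries, Pdcd1lg2 had 70.0 and 61.4 CPM in siCont and 21.8 and 14.6 CPM in siFXR1-LNA. Mature DCs had 99.9 and 135 against 62.4 and 96.5 CPM (log2 change -0.63 ± 0.31, adjusted p = 0.357). In cDC1s it had 0.420 and 2.30 CPM in siCont and 28.5 and 13.9 CPM in siFXR1-LNA, from 1, 4, 13 and 9 UMIs. Both siFXR1-LNA libraries were higher, with a log2 change of 3.94 ± 0.80 that missed the threshold with edgeR (adjusted p = 0.0870) and passed it with DESeq2 (4.02, adjusted p = 0.0205). In granulocytes it had 1.27 and 1.14 against 5.24 and 9.05 CPM, from 1, 2, 53 and 99 UMIs (log2 change 2.25 ± 0.78, edgeR adjusted p = 0.157), and many more of these cells were captured under the siFXR1-LNA label. Relative to macrophages, which had 1.08 and 0.405 against 1.55 and 1.62 CPM, the Pdcd1lg2 change in B cells was lower (interaction -2.68 ± 0.49 on the log2 scale, adjusted p = 0.00507; without siFXR1-LNA replicate 1 -2.40, adjusted p = 0.0605).

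Cd80 and Cd86, the ligands shared by CD28 and CTLA-4, were each tested in 8 types and called by edgeR in 0. At an unadjusted p under 0.05 there were 6 for Cd80 and 2 for Cd86, and DESeq2 called 0 and 1. Cd80 in granulocytes had 12.7 and 26.8 CPM in siCont and 55.1 and 73.4 CPM in siFXR1-LNA (10, 47, 557 and 803 UMIs). The siFXR1-LNA libraries were higher with no overlap (log2 change 1.29 ± 0.48, adjusted p = 0.185), and 94.8% of siCont granulocytes were in cluster c2.2 while 49.0% and 36.9% of siFXR1-LNA granulocytes were in c2.0 and c2.1. Within c2.2, Cd80 had 13.4 and 28.4 CPM in siCont and 21.0 CPM in siFXR1-LNA 2, from 432, 846 and 248 cells, and siFXR1-LNA 1 had only 7 cells there, too few for a level. In mature DCs Cd80 had 26.2 and 96.5 against 122 and 163 CPM, where siCont 1 was far below the other libraries. In macrophages the order was the opposite, with 15.8 and 18.1 against 10.7 and 10.5 CPM (log2 change -0.49 ± 0.16, adjusted p = 0.0959). The Cd80 change in granulocytes was above that of macrophages by 1.90 ± 0.39 (interaction, adjusted p = 0.00146), in mature DCs by 1.73 ± 0.32 and in cDC2s by 1.22 ± 0.30. These differences depended on single libraries: without siFXR1-LNA replicate 2 that of granulocytes was 1.71 (adjusted p = 0.317) and that of mature DCs 1.43 (adjusted p = 0.0712), and without siFXR1-LNA replicate 1 that of granulocytes was 2.20 (adjusted p = 0.112) and that of cDC2s 1.13 (adjusted p = 0.0558). Without siFXR1-LNA replicate 2 that of cDC2s was 1.31 (adjusted p = 0.0573).

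Cd86 in cDC2s had 53.6 and 57.6 CPM in siCont and 133 and 96.2 CPM in siFXR1-LNA (199, 203, 109 and 148 UMIs). The siFXR1-LNA libraries were higher without overlap, and the change of 0.97 ± 0.22 missed the threshold (adjusted p = 0.0624). In macrophages Cd86 had 44.6 and 49.1 against 38.3 and 38.4 CPM (log2 change -0.10 ± 0.12, adjusted p = 0.581), and the change in cDC2s exceeded it by 1.05 ± 0.19 (interaction, adjusted p = 0.000331). The level in cDC1s was even over all libraries, with 120 and 138 against 129 and 117 CPM. Mature DCs had 61.8 and 170 against 172 and 174 CPM, without overlap but with siCont 2 about equal to both siFXR1-LNA libraries. Their change was not called (log2 change 0.49 ± 0.43, edgeR adjusted p = 0.632). B cells had 43.9 and 70.6 against 45.7 and 58.1 CPM, with overlap.

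Pairs of ligands were also counted in the same cells. Among mature DCs, 19 of 336 and 40 of 147 siCont cells and 15 of 67 and 27 of 87 siFXR1-LNA cells had UMIs of both Cd274 and Cd80. For macrophages these were 67 of 4384 and 68 of 2132 against 116 of 3921 and 149 of 3650 cells. Cd274 with Cd86 was seen in 155 and 136 siCont macrophages and 344 and 524 siFXR1-LNA macrophages. These are counts of cells with a UMI at unequal depth, and a cell without a UMI may still express the gene. They were not compared with the overlap expected from each gene alone, and doublets were not removed. The counts therefore do not show that the ligands are expressed together.

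Ctla4 in gamma-delta T cells had the largest change of the 6 called pairs. It had 3 and 6 UMIs in siCont (3.44 CPM with an exact 95% Poisson interval of 0.710 to 10.1, and 14.3 CPM with 5.24 to 31.1). In siFXR1-LNA it had 114 and 270 UMIs, 427 CPM (352 to 513) and 249 CPM (220.0 to 280.3). Both siFXR1-LNA libraries were far above both siCont libraries, and the log2 change was 5.32 ± 0.62 (SE, n = 2 per group, edgeR adjusted p = 0.00234). It was called under every alternative in which it was tested, with 4.37 to 6.39 when a library was left out, where the lone library of a group is assumed to vary like the others. Thinned to 1000 UMIs, 0.246% and 1.40% of siCont gamma-delta T cells had a Ctla4 UMI against 22.9% and 12.3% in siFXR1-LNA (unthinned 0.693%, 3.23%, 37.2% and 16.7%). Erythrocytes, as background, had 0.0395%, 0.0723%, 0.173% and 0.237%. The shallower cells left out numbered 26, 12, 3 and 10, and the others had medians of 1892, 2472, 2054.5 and 2274.5 UMIs before thinning.

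Of the Ctla4 UMIs in siFXR1-LNA gamma-delta T cells, 110 of 114 and 255 of 270 were in cluster c8.1 (Cd163l1, Adam12, Trdv4, Il23r), which held 60.1% of the siFXR1-LNA gamma-delta T cells and 0.680% of those of siCont. Ctla4 had 473 and 541 CPM in its siFXR1-LNA cells and was among its leading genes. In cluster c8.3, with 196 cells of siFXR1-LNA 2, it had 22.2 CPM. The siCont cells were mainly in c8.0 (62.1%, with 3.26 and 7.90 CPM) and c8.2 (35.7%, with 3.89 and 28.8 CPM). No cluster held 20 cells of every library, so the comparison within shared clusters could not be made. The gamma-delta T cell markers summed to 2586 and 3186 CPM in siCont and 1506 and 2864 CPM in siFXR1-LNA, and the T cell markers to 2490 and 3367 against 1120 and 3054 CPM. Of the 8 NK cell markers, Ncr1, Klre1 and Klra8 were at 0 in these cells in all 4 libraries. The other NK cell markers are not given here, so these values do not show that NK cell RNA was absent.

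Pdcd1 in gamma-delta T cells had 41.3 and 66.6 CPM in siCont and 135 and 110 CPM in siFXR1-LNA (36, 28, 36 and 119 UMIs), higher in both siFXR1-LNA libraries but not called (log2 change 1.04 ± 0.39, adjusted p = 0.400). In the siFXR1-LNA cells of cluster c8.1 it had 146 and 191 CPM, and in the 196 cells of siFXR1-LNA 2 in c8.3 it had 53.7 CPM. The siCont cells had 48.9 and 23.7 CPM in c8.0 and 23.4 and 57.6 CPM in c8.2. Havcr2 in these cells had 6.88 and 4.76 against 18.7 and 31.3 CPM from 6, 2, 5 and 34 UMIs (adjusted p = 0.274). Tigit was seen with 0 and 1 UMIs against 2 and 18. As said for mature DCs, the interaction test in gamma-delta T cells took the spread almost wholly from all genes pooled. Set against macrophages, the changes of Ctla4, Pdcd1 and Havcr2 in gamma-delta T cells were higher by 3.81 ± 0.58, 3.40 ± 0.54 and 3.43 ± 0.63 (interaction, adjusted p of 4.44e-08, 2.17e-07 and 1.7e-05). That of Havcr2 was not past the threshold without siFXR1-LNA replicate 2 (3.05, adjusted p = 0.231).

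**Figure D4:**
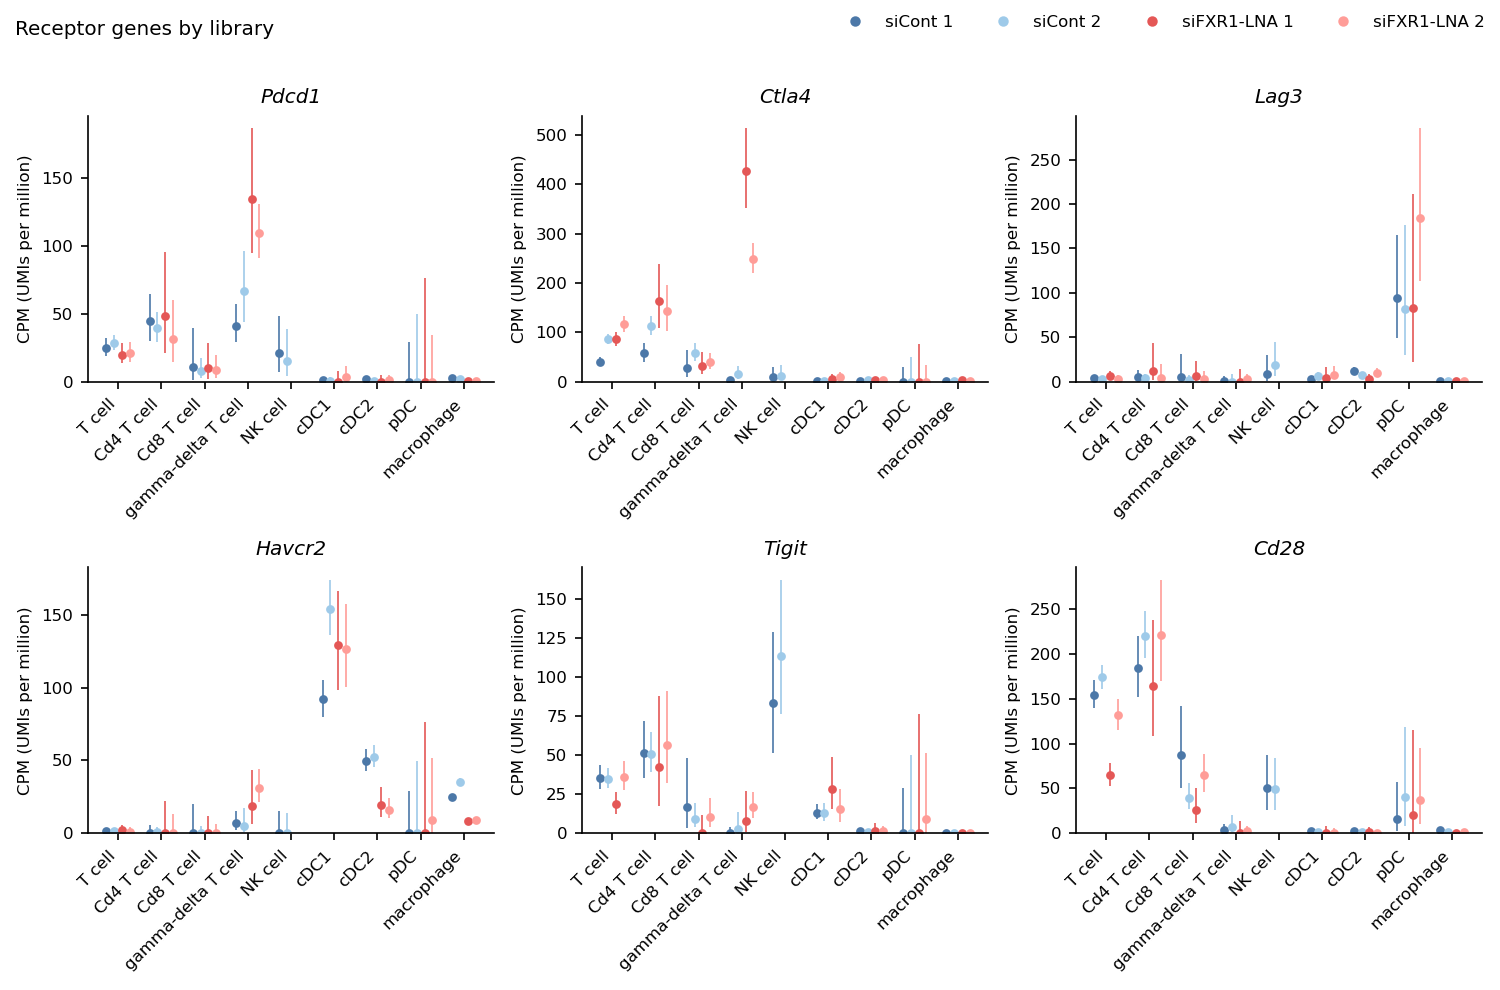
CPM of the 6 receptor genes in 9 sets of cells, with T cells also shown gated on Cd4 or Cd8, 1 point per library with its exact 95% Poisson interval (counting error only); libraries with 10 or fewer cells of a type are not drawn. Ctla4 in gamma-delta T cells is at 427 and 249 CPM in siFXR1-LNA and at 3.44 and 14.3 CPM in siCont, and Havcr2 in macrophages and cDC2s is lower in both siFXR1-LNA libraries.

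In T cells no receptor was called by edgeR or DESeq2, and 1 member (Cd86) had an unadjusted p under 0.05. Cd28 had 154 and 174 CPM in siCont and 64.6 and 132 CPM in siFXR1-LNA (log2 change -0.73 ± 0.35, adjusted p = 0.420), with siFXR1-LNA 1 the lowest. Ctla4 had 40.4 and 85.6 against 85.7 and 116 CPM (0.69 ± 0.38, adjusted p = 0.494). Pdcd1 had 24.8 and 28.4 against 19.9 and 20.9 CPM and Tigit 35.2 and 34.9 against 18.6 and 36.1 CPM. For Tigit the groups overlapped. For the other genes they did not: Cd28 and Pdcd1 were lower and Ctla4 higher in siFXR1-LNA, for Ctla4 with siCont 2 and siFXR1-LNA 1 about equal. None of these differences was called. With 2 libraries per group, separated groups have an exact permutation p of 0.333, so a lack of overlap alone is a description throughout. T cells of siCont were mainly in cluster c5.0 (53.2%, with Cd4 and Cd28 among its leading genes), and those of siFXR1-LNA in c5.1 (74.7%, with Cd8b1 and Lef1), so the mixture of T cells differed between the groups.

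T cells were therefore also split by their UMIs of Cd4 and of Cd8a or Cd8b1. Cells with a Cd4 UMI and none of Cd8a or Cd8b1 numbered 301 and 487 in siCont and 69 and 113 in siFXR1-LNA. Among them Cd28 had 184 and 221 against 164 and 221 CPM, values that overlapped (adjusted p = 0.942). Ctla4 had 57.2 and 112 CPM in siCont and 164 and 144 CPM in siFXR1-LNA, higher in both siFXR1-LNA libraries and not called (0.76 ± 0.38, adjusted p = 0.419). Tigit had 51.0 and 50.7 against 42.5 and 56.1 CPM, and Pdcd1 44.8 and 39.2 against 48.5 and 31.6 CPM. None of the 5 members that passed the filter was called, where 2.28% of all tested genes were. Cells with a Cd8a or Cd8b1 UMI and none of Cd4 (87 and 279 against 126 and 188) had 87.7 and 39.6 against 25.7 and 64.7 CPM of Cd28 and 27.4 and 58.1 against 32.1 and 39.2 CPM of Ctla4, and 0 of 3 tested members was called beside 0.67% of all genes. In either set no member had an unadjusted p under 0.05 with edgeR or a call by DESeq2.

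Too few cells for a test had a Foxp3 UMI, the factor of regulatory T cells (11 and 20 against 6 and 4). Ctla4 had 598 and 646 against 616 and 1423 CPM in them and Tigit 438 and 258 against 77 and 316 CPM. NK cells had 83.4 and 113 CPM of Tigit in siCont and 150 and 264 CPM in siFXR1-LNA. Ctla4 in NK cells had 2 and 3 UMIs in siCont (8.34 and 11.3 CPM) and 12 and 22 UMIs in siFXR1-LNA (449 and 528 CPM), from 5 and 10 cells in siFXR1-LNA. These cells carry no test.

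Havcr2, the gene of TIM-3, was lower in siFXR1-LNA in macrophages and cDC2s. Macrophages had 24.7 and 35.3 CPM in siCont and 8.30 and 9.29 CPM in siFXR1-LNA (572, 610, 188 and 304 UMIs). The groups were well apart, with siCont 3.41 times the level of siFXR1-LNA, and the log2 change was -1.58 ± 0.23 (SE, n = 2 per group, edgeR adjusted p = 0.0145). It was not past the threshold without siFXR1-LNA replicate 1 (-1.48, adjusted p = 0.0905) or replicate 2 (-1.65, adjusted p = 0.0671). The siCont level came largely from cluster c3.1, with 75.8 and 81.0 CPM, while c3.0 had 9.46 and 19.9 CPM and c3.5 had 2.00 and 2.91 CPM. The clusters c6.0 to c6.3, c6.5 and c6.6 of siFXR1-LNA had 3.04 to 18.1 CPM. With only the clusters held by all libraries the change was -1.24 (adjusted p = 0.207). Thinned shares of macrophages with a Havcr2 UMI were 2.62% and 4.02% against 0.743% and 1.10%, and those of erythrocytes 0.0733%, 0.0723%, 0.0789% and 0.203%.

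In cDC2s Havcr2 had 49.8 and 52.5 CPM in siCont and 19.5 and 16.2 CPM in siFXR1-LNA (185, 185, 16 and 25 UMIs). The siCont libraries were 2.86 times higher and close to each other, and the log2 change was -1.59 ± 0.23 (edgeR adjusted p = 0.0143), or -1.72 (adjusted p = 0.0646) without siFXR1-LNA replicate 1 and -1.46 (adjusted p = 0.0751) without replicate 2. The siCont level came from cluster c3.6, a cluster with no siFXR1-LNA cell, with 69.2 and 71.3 CPM. In c3.4 the direction was the other way, 11.9 and 5.90 CPM in siCont and 19.5 and 16.2 CPM in siFXR1-LNA (log2 change 0.90, adjusted p = 0.546). Thinned to 1000 UMIs, 5.17% and 5.37% of siCont cDC2s had a Havcr2 UMI, against 0 of 185 in siFXR1-LNA 1 (exact 95% binomial upper bound 1.97% at this thinned depth) and 0.855% in siFXR1-LNA 2. Without thinning the shares were 17.6%, 26.9%, 7.03% and 9.36%. In cDC1s, which had the highest level, Havcr2 had 92.0 and 154 against 129 and 127 CPM, with overlap (0.05 ± 0.29, adjusted p = 0.960), and 69.3% of the siCont cDC1s were in cluster c9.0 while 83.2% of those of siFXR1-LNA were in c9.1. The difference between cDC1s and macrophages in this change was 1.67 ± 0.23 (interaction, adjusted p = 3.71e-06) and was past the threshold without any single library.

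Pdcd1 was the third called gene in macrophages, at a low level of 2.38 and 2.14 CPM in siCont and 0.442 and 0.336 CPM in siFXR1-LNA, from 55, 37, 10 and 11 UMIs. The siCont libraries were 5.81 times higher, with a log2 change of -2.35 ± 0.38 (edgeR adjusted p = 0.0195). The adjusted p was 0.0540 without siCont replicate 1 (-2.31), 0.119 without siFXR1-LNA replicate 1 (-2.52) and 0.115 without siFXR1-LNA replicate 2 (-2.14). Of the clusters, c3.1 had the most, with 6.66 and 4.59 CPM in siCont. After thinning, 0.301% and 0.143% of siCont macrophages and 0% and 0.0275% of siFXR1-LNA macrophages had a Pdcd1 UMI, beside up to 0.0676% of erythrocytes and up to 0.139% of epithelial or mesothelial cells. The shares other than that of siCont 1 were thus about at or below this background. The 8 T cell markers summed to 17.7 and 13.8 CPM in siCont macrophages and 11.3 and 15.9 CPM in siFXR1-LNA macrophages, values that overlapped. In T cells the Pdcd1 change was above that of macrophages by 1.98 ± 0.45 (interaction, adjusted p = 0.0435), but not without siFXR1-LNA replicate 1 (2.16, adjusted p = 0.195) or replicate 2 (1.80, adjusted p = 0.278).

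Lag3 was called in none of the 6 types where it passed the filter, by edgeR or DESeq2, and had no unadjusted p under 0.05. Its levels in pDCs, 94.7 and 81.3 against 82.6 and 185 CPM, overlapped, and pDCs had too few counts for it to pass. Macrophages had 1.12 and 0.868 against 0.972 and 0.611 CPM, and T cells 3.60 and 2.73 against 6.21 and 3.39 CPM.

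The types that held the UMIs of a gene differed between the groups, and numbers of cells and levels per cell were not separated in these shares. Of all Cd274 UMIs, macrophages held 32.8% and 27.8% in siCont and 63.6% and 74.0% in siFXR1-LNA, while mature DCs held 17.6% and 23.1% against 2.01% and 3.01%, and B cells 13.8% and 14.8% against 1.06% and 0.906%. Granulocytes held 1.18% and 5.40% of Cd80 UMIs in siCont and 52.3% and 55.3% in siFXR1-LNA, and macrophages 43.0% and 35.9% against 22.8% and 23.6%. For Pdcd1lg2 the main carrier went from B cells (39.4% and 44.6% in siCont, 10.6% and 10.1% in siFXR1-LNA) to granulocytes (0.150% and 0.337% against 28.0% and 30.2%). Gamma-delta T cells held 0.912% and 0.939% of Ctla4 UMIs in siCont and 20.1% and 36.7% in siFXR1-LNA, and 12.8% and 10.2% against 31.0% and 50.0% of those of Pdcd1. T cells held 46.6% and 61.9% against 53.1% and 63.1% of Cd28 UMIs and 35.2% and 40.9% against 28.3% and 42.4% of Tigit UMIs, without a gap between the groups. Of the Havcr2 UMIs, 48.6% and 49.5% against 44.4% and 54.6% were in macrophages. Unnamed clusters held 59.4% of Lag3 UMIs in siFXR1-LNA 1.

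**Figure D5:**
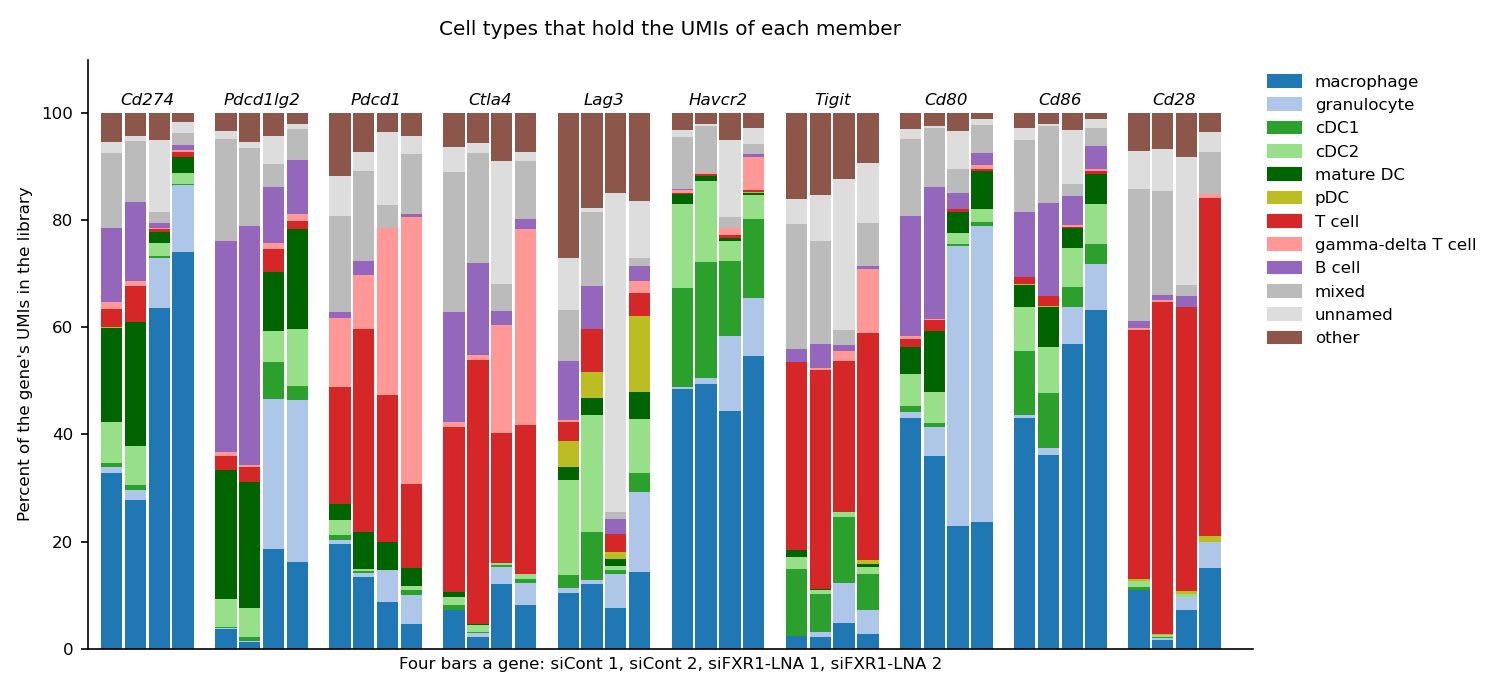
Percent of the UMIs of each gene by the cell type that held them, 1 bar per library in the order siCont 1, siCont 2, siFXR1-LNA 1, siFXR1-LNA 2, all bars from 0 to 100%. Granulocytes take 52.3% and 55.3% of Cd80 UMIs in siFXR1-LNA and 1.18% and 5.40% in siCont, and macrophages take 63.6% and 74.0% of Cd274 UMIs in siFXR1-LNA.

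A wider set of genes of the same pathways was counted in each type: 21 other ligands, 16 other receptors, 10 genes of the interferon-gamma axis and 12 genes of regulatory and exhausted T cells. In macrophages 46 of them passed the filter, 5 were higher and 13 lower in siFXR1-LNA, where 9.26% and 9.63% of all tested genes were called in those directions. By list these were 2 up and 3 down of 15 tested ligands (median log2 change -0.39), 1 up and 5 down of 11 receptors (-0.77), 1 up and 4 down of 9 genes of the interferon-gamma axis (-1.03), and 1 up and 1 down of 11 regulatory and exhausted T cell genes (-0.16), beside a median of 0.01 over all genes. In the interferon-gamma list, the chemokine Cxcl10 (21.5 and 39.4 against 6.58 and 6.54 CPM, -2.03) and Ciita (50.6 and 50.7 against 7.37 and 15.1 CPM, -1.98), the activator of MHC class II genes, were lower in siFXR1-LNA, and the groups did not overlap. Jak2, a kinase of the interferon-gamma receptor, was higher, with 42.9 and 38.2 against 56.1 and 53.3 CPM (0.62, edgeR adjusted p = 0.0248), but was not past the threshold when any 1 library was left out (0.57 to 0.67, adjusted p = 0.0505 to 0.127). Most calls of the wider lists were lost when a siFXR1-LNA library was left out: of 35 calls in all types, 21 and 17 were kept without siCont replicate 1 or 2 and 4 and 10 without siFXR1-LNA replicate 1 or 2, and 3 (Ceacam1 and Ciita in macrophages, Nr4a1 in granulocytes) were kept in each case. With cells named from their own marker UMIs 11 of the 34 still tested were kept, without cells with UMIs of other lineages 25 of 35, and with only the clusters held by every library 1 of 23.

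Of the other macrophage genes past the threshold with the smallest p, Ceacam1, an inhibitory surface protein, had 94.2 and 93.7 against 24.4 and 31.0 CPM (-1.57), and Cd40, the costimulatory receptor for CD40 ligand, had 56.0 and 45 against 17.8 and 24.1 CPM (-1.08). Cd244a (64.9 and 61.1 against 32.1 and 32.6 CPM, -0.77) and Cd226 (8.81 and 9.78 against 2.16 and 3.21 CPM, -1.60) were lower as well. Pvr, the ligand of TIGIT and CD226, was higher in siFXR1-LNA with 7.99 and 6.13 against 18.1 and 13.9 CPM (1.37), as were Prdm1 (6.57 and 4.98 against 12.4 and 12.7 CPM, 1.31) and Tnfrsf9, the gene of 4-1BB (0.648 and 0.347 against 3.53 and 2.72 CPM, 2.80). In all of these genes the libraries of the groups did not overlap. They were picked as called, so this adds no evidence beyond the calls.

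The wider lists gave few calls elsewhere. In cDC2s 1 was higher and 3 lower of 33 tested, beside 1.68% and 1.92% of all genes: Lgals9, a TIM-3 ligand (144 and 156 against 59.8 and 55.2 CPM, -1.44), Entpd1 (52.0 and 62.4 against 12.2 and 22.1 CPM, -1.71), Socs1 (28.3 and 36.6 against 6.10 and 11.7 CPM, -1.81) and, higher, Nr4a2 (2.69 and 1.42 against 9.76 and 18.2 CPM, 2.73). In T cells 1 of 43 was called, beside 0.694% of all genes. This was Ifng, the interferon-gamma gene, with 56 and 104 UMIs in siCont and 6 and 4 in siFXR1-LNA (22.4 and 28.4 against 3.73 and 2.26 CPM, -3.05 ± 0.43, adjusted p = 0.0404), low in both siFXR1-LNA libraries. Without siFXR1-LNA replicate 1 its change was -3.51 (adjusted p = 0.211) and without replicate 2 -2.67 (adjusted p = 0.221).

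In mature DCs 2 of 32 were called, beside 2.41% of all genes: Tnfrsf9 was higher (33.7 and 25.1 against 119 and 119 CPM, 1.88) and Tnfrsf4, the gene of OX40, lower (238 and 194 against 80.2 and 103 CPM, -1.34), in cells that sat largely in different clusters as given above. In granulocytes 1 was higher and 2 lower of 40, beside 2.65%: Nr4a1 (7.60 and 3.98 against 76.5 and 123 CPM, 3.92), Tnfsf14 (29.1 and 37.6 against 5.04 and 11.1 CPM, -2.38) and Cd200r1 (16.5 and 35.9 against 4.75 and 8.05 CPM, -2.44). Epithelial or mesothelial cells had 1 higher (Sirpa, 1.63) and 3 lower (Lgals9 -1.13, Ciita -2.09, Cxcl10 -2.36) of 27, beside 8.97%. Of these cells, 66.9% of siCont were in cluster c7.1 and 48.5% of siFXR1-LNA in c7.0. Erythrocytes had 0 higher and 3 lower (Socs1 -2.00, Ikzf2 -1.27, Lgals9 -1.08) of 42, beside 6.41%. They too sat largely in different clusters, with 52.7% of siCont in c1.0 and 67.4% of siFXR1-LNA in c0.1. EdgeR called none of the wider lists in B cells, cDC1s, gamma-delta T cells, fibroblasts, c11.0, pDCs or the T cells gated on Cd4 or Cd8, where 11, 3, 6, 5, 0, 1, 8 and 2 had an unadjusted p under 0.05. DESeq2 called 2 in B cells and 0 in the others. Counts at an unadjusted p or by DESeq2 have no share of all tested genes beside them and are descriptions. Lgals9 was thus called lower in erythrocytes too, although its CPM there overlapped, with 47.8 and 20.2 against 28.5 and 21.8. EdgeR's change uses TMM-scaled totals and the CPM do not, so the change and the CPM can differ. The part of free RNA in the calls of other types was not tested.

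Over the 13 types, the gene with the most similar pattern of mean log2(CPM + 1) among 12585 genes was Plxnc1 for Cd274 (Pearson r = 0.937), followed by Rassf2 and Gm36043. For the other ligands these were Alpk2, Cd83 and Plxnc1 for Pdcd1lg2 (0.884 for the first), Bloc1s3, Icosl and Rassf3 for Cd80 (0.918), and Tbc1d9, Ifi30 and H3f3a for Cd86 (0.919). Among receptors they were Gm16565, Kcnk7 and Icos for Pdcd1 (0.943), Gm1043, Sh2d2a and Igflr1 for Ctla4 (0.959), Nsg2, Cd4 and Cd8b1 for Cd28 (0.958), Havcr1, Prrt3 and Upb1 for Lag3 (0.941), Adcy4, Slc52a3 and Cysltr1 for Havcr2 (0.909), and Sema4f, Kremen2 and Rab11fip4 for Tigit (0.894). The points are 13 types from the same 4 libraries that differ in depth and number of cells, so these values are descriptions.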

How the data were processed

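The deposited files hold raw UMI counts per gene and barcode, for which the authors ran Cell Ranger (7.0.0 in the submitters' processing notes) on the mm10 genome. Gene positions are those of the GENCODE annotation of that build. One siFXR1-LNA replicate that the methods leave out is not identified in the labels, so both were used. Barcodes were kept at 100 to 4800 genes if mitochondrial UMIs made up 15% or less, and were clustered in 2 rounds with Seurat 5.3.0 (2000 variable genes, 50 components, resolutions 0.1 and 0.3). A cluster was named by at least 3 markers at 2 times the other clusters and in 5% of its cells. A first-round cluster under 0.5 of the median depth of the deepest one of its name was set to unnamed. Second-round clusters of an unnamed cluster needed a share of 0.8 of a type's markers raised. Leading genes of another type, low depth or few cells could also leave a cluster unnamed, and erythrocytes needed hemoglobin UMIs. Doublets were not removed in the main counts, and a Scrublet alternative left out the highest 5% of scores.

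Counts summed per library and type were tested with edgeR 4.0.16 (TMM, filterByExpr, glmQLFTest) over all genes with Benjamini-Hochberg adjustment, for types with at least 10 cells in each library. The interaction with macrophages used the library as a block. EdgeR's fold changes rest on TMM-scaled totals, while CPM are UMIs over the plain total of a type. DESeq2 1.42.0 was an alternative. Fold changes are given on the log2 scale with 1 SE, and shares with exact 95% binomial intervals that cover counting error only, as do the Poisson intervals. Scripts were tested on simulated counts with a set spread between libraries. The group test recovered 29%, 13% and 23% of 2-fold changes in macrophages, B cells and cDC1s. Of 4-fold changes it recovered 98%, 95% and 100%. The interaction test of B cells against macrophages recovered 4% of 2-fold and 69% of 4-fold changes. Named were the 10 genes, at most 10 called genes of the wider lists per type, the 3 genes most similar to each member, and Fxr1. Some genes are not reported here and were left out of the counts over the wider lists. Members and lists were chosen with earlier results of these data known.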

Additional observations from a re-analysis of the deposited data

Results flagged for a closer look

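The change between groups differed from that of macrophages, by the edgeR interaction test, for 19 of 52 pairs of gene and type, 10 with a higher and 9 with a lower value than macrophages, beside 3.9% of all pairs of gene and type that passed the filter in both. All are compared with the same macrophage sums and are not independent of each other. Values are log2 differences of the change, type minus macrophage.

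For Cd274 the difference was -2.94 in B cells, -2.83 in T cells, -2.84 in gamma-delta T cells, -3.57 in cluster c11.0, -2.68 in mature DCs and -1.11 in cDC2s. Without siCont replicate 2 that of c11.0 was -3.05 (adjusted p = 0.0625), and without siFXR1-LNA replicate 2 that of cDC2s was -0.70 (adjusted p = 0.0713). For Pdcd1lg2 it was -2.68 in B cells and -1.89 in mature DCs. The first was -2.40 (adjusted p = 0.0605) without siFXR1-LNA replicate 1, and the second -1.62 (adjusted p = 0.0654) without the same library and -1.14 (adjusted p = 0.363) without siCont replicate 2.

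Cd80 had differences of 1.90 in granulocytes, 1.73 in mature DCs, 1.22 in cDC2s and 2.20 in cDC1s, and Cd86 of 1.05 in cDC2s. That of Cd80 in cDC1s (adjusted p = 0.0259) was past the threshold only with all 4 libraries: it was 2.20 and 2.11 without siCont replicate 1 or 2 (adjusted p = 0.0742 and 0.0896) and 2.48 and 1.62 without siFXR1-LNA replicate 1 or 2 (adjusted p = 0.0663 and 0.553).

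Among the receptors, Ctla4 had a difference of 3.81 in gamma-delta T cells and -2.27 in B cells, where it was -1.92 (adjusted p = 0.292) without siFXR1-LNA replicate 1. Pdcd1 had 3.40 in gamma-delta T cells and 1.98 in T cells, and Havcr2 had 3.43 in gamma-delta T cells and 1.67 in cDC1s.

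Barcodes in no named type also carried Cd274, at 15.7 CPM in siFXR1-LNA 1 and 31.3 CPM in siFXR1-LNA 2 beside 5.46 and 13.7 CPM in siCont. They are in no test within a cell type, and count in the text only toward the Fxr1 level of all kept cells and the totals behind the shares of a gene's UMIs by type.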

How the results depend on the processing

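The 6 calls were all kept with no filter on low counts, DESeq2, the first round at resolution 0.3, a minimum of 500 genes, mitochondrial UMIs up to 30%, without cells with UMIs of other lineages, without the highest Scrublet scores, and without siCont replicate 2. 5 were kept without siCont replicate 1, 2 without siFXR1-LNA replicate 1, 3 without siFXR1-LNA replicate 2, and 3 with cells named from their own marker UMIs. In that last setting Cd274 in cDC2s was 0.75 (adjusted p = 0.258), Pdcd1 in macrophages -1.23 (0.221) and Havcr2 in macrophages -1.84 (0.0553). With only clusters held by every library, chosen after seeing the data, 1 of 4 testable calls was kept: Cd274 in macrophages was 0.80, Havcr2 in macrophages -1.24, and Havcr2 in cDC2s turned to 0.90. The cause of these shifts was not tested.

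Calls among the 10 genes, 6 of 63 tested pairs in the main test, were 16 of 125 with no filter and 10 of 58 with at least 500 genes. They were 3 of 68 with cells named from marker UMIs and 1 of 24 with shared clusters. The bases thus differ, and the share over all gene and type pairs is not given for these 4 settings. In cDC2s the genes called, 375 in the main test, were 1210, 660, 174 and 57 in those settings. In gamma-delta T cells, with 81, they were 243 with no filter and 27 with cells named from marker UMIs. In macrophages, with 2697, they were 479 with cells named from marker UMIs, 1528 without cells with UMIs of other lineages and 0 with shared clusters (1314 at an unadjusted p under 0.05). Leaving out a library gave 2 to 13 pairs, 88 to 775 genes in cDC2s, 127 to 309 in gamma-delta T cells and 399 to 1908 in macrophages.

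With the replicate number as a block (the replicate block), 13 of 63 pairs, 1309 genes in cDC2s and 289 in gamma-delta T cells were called, and all 6 calls were kept. Same-numbered libraries share only a number: the correlation of their deviations ran from -0.0724 in epithelial or mesothelial cells to 0.370 in T cells and granulocytes, over 2 pairs.

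Without each library, Havcr2 in cDC2s ranged from -1.72 to -1.46, Cd274 in cDC2s from 0.97 to 1.86, Pdcd1 in macrophages from -2.52 to -2.14 and Havcr2 in macrophages from -1.85 to -1.26. Differences from macrophages ranged from -2.91 to -1.72 (Ctla4, B cells), -3.66 to -2.11 (Pdcd1lg2, B cells), 1.80 to 2.16 (Pdcd1, T cells), 1.62 to 2.48 (Cd80, cDC1s), 1.12 to 1.31 (Cd80, cDC2s), -1.52 to -0.70 (Cd274, cDC2s), 3.05 to 4.18 (Havcr2, gamma-delta T cells), 1.51 to 2.70 (Cd80, granulocytes), -4.79 to -3.05 (Cd274, c11.0), 1.01 to 2.74 (Cd80, mature DCs) and -3.02 to -1.14 (Pdcd1lg2, mature DCs).

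Among pairs not called in the main test, 10 passed the threshold with no filter, 7 under the replicate block, 3 with DESeq2 and 3 with at least 500 genes. Resolution 0.3 and the Scrublet alternative brought 1 each, and leaving out a library brought further ones. These pairs are not named here. Counted apart from them, other pairs turned the direction. With cells named from marker UMIs these were Lag3 in B cells (-0.26), granulocytes (-0.0110) and macrophages (0.38), Cd274 in T cells (0.11) and cells with mast cell markers in place of c11.0 (0.95), and Ctla4 (-0.62) and Cd80 (0.91) in erythrocytes. At 30% mitochondrial UMIs they were Pdcd1 (0.52), Tigit (1.65) and Cd274 (0.18) in T cells and Ctla4 in granulocytes (0.0016). Ctla4 in granulocytes was also 0.0753 under the replicate block, 0.0435 with DESeq2 and 0.19 without high Scrublet scores. The others were Havcr2 in cDC1s (-0.0047, no filter), Havcr2 in granulocytes (0.24) and Pdcd1 in mature DCs (-0.0111) with at least 500 genes, Cd86 in macrophages (0.0696) and Pdcd1 in mature DCs (-0.15) without cells with UMIs of other lineages, Pdcd1 in mature DCs at resolution 0.3 (-0.0048), and Cd86 in macrophages (0.0065) and Cd274 in mature DCs (0.30) with shared clusters.

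Leaving out a library turned Lag3 (-0.24 to 0.60) and Cd86 (-0.51 to 0.13) in B cells, Havcr2 (-0.29 to 0.47) and Cd86 (-0.19 to 0.0331) in cDC1s, Lag3 in epithelial or mesothelial cells (-0.83 to 0.34), Ctla4 (-0.57 to 1.93), Pdcd1 (-2.52 to 0.30), Havcr2 (-1.0 to 0.55) and Cd86 (-0.78 to 0.28) in erythrocytes, Ctla4 (-0.72 to 7.05), Lag3 (-0.48 to 1.32) and Havcr2 (-0.65 to 0.51) in granulocytes, Cd28 (-1.79 to 0.42), Lag3 (-0.50 to 0.16) and Cd86 (-0.20 to 0.0067) in macrophages, and Pdcd1 (-0.45 to 1.42), Cd86 (-0.10 to 1.37) and Cd274 (-0.52 to 0.34) in mature DCs. The share differences of the 6 called pairs kept their sign in the alternatives run, except that of Pdcd1 in macrophages, which was 0 with shared clusters, where that of Havcr2 in cDC2s was -0.604 percentage points and the groups overlapped. The ratio of mean Fxr1 CPM stayed between 1.40 and 2.59. With 2 pooled libraries per group, low UMI counts (pDCs, c11.0, NK cells) and types whose groups sit in different clusters limit what these values show.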
